A study of Mus musculus with 2 samples.

Results

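The genes described here are 36 that encode lysine deacetylases, lysine acetyltransferases and proteins that read or act on acetylated chromatin. They were taken by symbol from the probes of 2 one-colour microarrays of mouse spleen RNA, through the RefSeq accession that each non-control probe carries. All 36 had a probe, 55 probes in all, among 20655 genes with a named probe. Each of the 36 was detected, meaning well above background by the scanner software's call, on both arrays with its brightest probe, so none of them was lost to the filter on dim probes, which left 13714 genes measured.

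One array held RNA from the spleen of Loxl3+/+ mice and the other RNA from the spleen of Loxl3-/- mice, all male, healthy and untreated. The sources used here do not give age, strain, how the Loxl3 allele was made, or whether animals were pooled. With 1 array per group no difference has a replicate check and no p-value can be given. The only errors at hand are those that the scanner software gave per spot, and they hold no variation between animals.

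Lysine acetylation neutralises the charge of histone tails and of many other proteins. Acetyltransferases add the mark, bromodomain proteins bind it, and deacetylases remove it, either with a zinc ion (the Hdac genes) or by consuming NAD (the sirtuins). In lymphocytes these enzymes take part in gene silencing during development and in T cell activation. Loxl3 encodes a lysyl oxidase that crosslinks matrix proteins and that has also been described as taking acetyl groups off the transcription factor STAT3, which is the link between the genotype compared and this enzyme class.

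None of the 36 genes differed 2-fold between the arrays, against 4.83% of all genes measured (2.57% higher and 2.26% lower on the knockout-labelled array). At 1.5-fold the count was 3 of 36, or 8.33%, against 17.5% of all genes. No gene was 1.5-fold higher, against 8.04% of all genes, and 3 were lower, against 9.47%: Hdac6, the cytoplasmic tubulin deacetylase, Ncoa3, a nuclear receptor coactivator, and Hdac7, a class IIa deacetylase. This one-sided count depends on the scaling: with only probes detected on both arrays used for it, Kat2b (0.61) and Ncor1 (0.68) were 1.5-fold higher and Hdac6 (−0.60) alone was lower, and with the signal trend removed the genes past 1.5-fold were Hdac6 and Sirt5. Ncor1, which encodes the corepressor scaffold that carries Hdac3, was the highest. The median log2 difference, knockout-labelled minus wild type, was −0.15 over the 36 genes and −0.093 over all genes, and 26 of the 36 (72.2%) were below 0 against 59.2% of all genes. Both medians moved towards 0 when the trend of the difference on signal was removed, as given further on. The software error was as large as or larger than the difference for 18 of the 36. This share was not counted over all genes, whose median software error was 0.205 and whose differences had quartiles of −0.34 and 0.19.

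**Figure D1:**
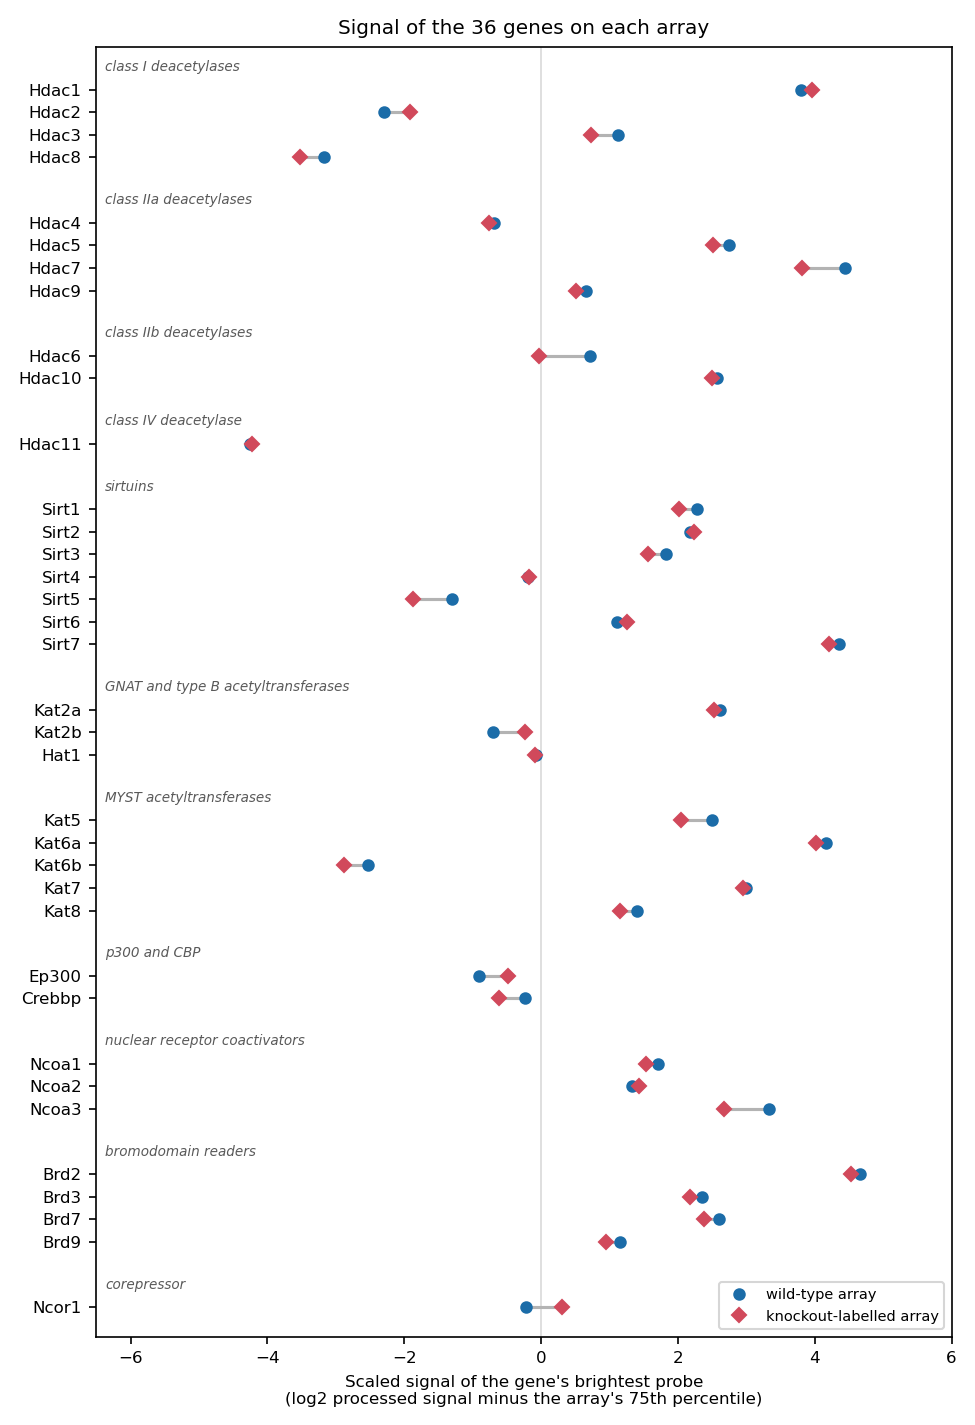
Scaled log2 signal of each gene's brightest probe (x axis, log2 processed signal minus the array's 75th percentile) on the wild-type array (circles) and the knockout-labelled array (diamonds), with 1 array per group and genes grouped by role. The pairs lie close together, with the widest gaps at Hdac6, Ncoa3 and Hdac7. Signals of different genes come from different probes and are not comparable with each other.

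The start regions of the genes at the ends of this range are printed because the study's genotype has been tied to STAT3, whose family binds the palindrome TTCNNNGAA. They are the lowest gene, Hdac6, the third lowest, Hdac7, and the highest, Ncor1, read 5′ to 3′ from RefSeq on GRCm38.p6 and spanning 250 bases before to 50 after a transcript start. The table used here holds no entry for Ncoa3. Capitals mark TTCNNNGAA, which reads the same on both strands.
Hdac6 (chrX:7947840-7948139, minus strand): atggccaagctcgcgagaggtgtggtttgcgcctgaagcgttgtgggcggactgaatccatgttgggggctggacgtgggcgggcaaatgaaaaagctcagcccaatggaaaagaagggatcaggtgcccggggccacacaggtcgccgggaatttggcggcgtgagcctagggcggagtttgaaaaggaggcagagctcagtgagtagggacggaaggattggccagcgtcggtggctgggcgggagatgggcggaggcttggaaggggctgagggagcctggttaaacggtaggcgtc
Hdac7 (chr15:97814814-97815113, minus strand): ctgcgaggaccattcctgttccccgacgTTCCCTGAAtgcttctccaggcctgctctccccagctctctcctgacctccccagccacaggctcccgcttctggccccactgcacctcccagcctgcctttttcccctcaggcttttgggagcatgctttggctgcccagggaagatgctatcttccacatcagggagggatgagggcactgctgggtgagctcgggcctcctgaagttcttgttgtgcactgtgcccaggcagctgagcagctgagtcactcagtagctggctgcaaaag
Ncor1 (chr11:62438466-62438765, minus strand): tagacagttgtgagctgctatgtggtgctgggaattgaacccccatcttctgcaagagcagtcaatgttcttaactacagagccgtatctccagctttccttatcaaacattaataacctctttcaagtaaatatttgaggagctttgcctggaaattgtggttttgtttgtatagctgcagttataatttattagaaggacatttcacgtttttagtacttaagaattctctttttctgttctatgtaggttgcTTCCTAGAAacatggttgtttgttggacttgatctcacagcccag
For Hdac7 this is 1 of 4 start regions in the table and for Ncor1 1 of 2, in each case one that holds the motif. The Hdac6 region holds none. Of the 36 genes 30 had a start region there, and 4 of the 30 held the motif in at least 1 region (13.3%), namely Brd2, Hdac7, Ncor1 and Sirt7, against 9.55% of the 27025 genes in the table. Of the 4 genes, Brd2, Hdac7 and Sirt7 had values below 0 and Ncor1 above in the main calculation. With the signal trend removed Brd2 (0.23) and Sirt7 (0.18) were above 0 and Hdac7 (−0.30) below. Whether the motif goes with a difference was not tested. A match of these letters is a description of the sequence and does not show binding.

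Class I deacetylases, the catalytic subunits of the large nuclear corepressor complexes, went both ways. Hdac1, which works in the NuRD, Sin3 and CoREST complexes, had signals of 13508 (wild type) and 21796 (knockout-labelled), which after scaling differed by 0.17 ± 0.20 on the log2 scale. Its other probes were at 0.052 and 0.79, so all 3 were above 0 but far apart. Hdac2, the partner of Hdac1 in the same complexes, was at 0.38 ± 0.077 (signals 199 and 370.2).

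The Hdac2 probe was printed 10 times, which shows how far a value moves within an array. Its spots ranged from 162 to 292 on the wild-type array (median 176) and from 280 to 421 on the knockout-labelled array (median 379), over the 9 spots kept. Before scaling these ranges overlapped only between 280 and 292, but the knockout-labelled array was brighter as a whole. Its 75th percentile signal was 1400 against 974 on the wild-type array, so the unscaled ranges do not compare the genotypes. Spot by spot the log2 difference was above 0 in 8 of 9, with a mean of 0.39 ± 0.36 (SD over 9 spots, technical). Hdac3, the enzyme of the NCoR complex, lay on the other side at −0.40 ± 0.20, with signals of 2125 and 2309. Hdac8, a cohesin deacetylase that works outside those complexes, had probes at −0.36 ± 0.32 and 0.11, the brighter one first, and so no settled direction.

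All 4 class IIa deacetylases, which have little enzyme activity of their own and repress MEF2 transcription factors, were below 0 in the main calculation. Hdac7, known for its part in thymocyte survival and vessel integrity, had signals of 21165 and 19722 and a difference of −0.62 ± 0.20, or 1.54 times lower. It was at −0.30, within 1.5-fold, once the trend of the difference on signal was removed. Hdac5 was at −0.23, Hdac9 at −0.15 and Hdac4 at −0.078. Hdac4 turned to 0.068 under a scaling that used only probes detected on both arrays.

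Hdac6 had the lowest value of the 36 genes. Its signals were 1596 (wild type) and 1365 (knockout-labelled), a difference of −0.75 ± 0.20, or 1.68 times lower. Its other probe was also lower, at −0.63 (signals 833 and 773), and no other gene of the 36 with several probes detected on both arrays had them all below 0. Across the 12 calculations Hdac6 ranged from −0.84 to −0.55. Of all genes measured, 5.32% lay lower. Hdac10, its class IIb relative and a polyamine deacetylase, was at −0.071 and 0.14 with its 2 probes. Hdac11, the only class IV enzyme, was near the detection limit (signals 51.1 and 74.5) at 0.022 ± 0.42.

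Sirtuins lay close to 0 apart from Sirt5. Sirt5, the mitochondrial enzyme that removes succinyl and malonyl groups, had signals of 393 and 382 and a difference of −0.56 ± 0.21, just inside 1.5-fold. It ranged from −0.66 to −0.42 across the 12 calculations, some of which cannot differ for a gene with 1 probe. With the signal trend removed it passed 1.5-fold at −0.62. The other mitochondrial members were at −0.26 (Sirt3, the main mitochondrial deacetylase) and 0.018 (Sirt4). Sirt1, the nuclear enzyme known for acting on p53 and NF-kappaB, was at −0.25, and Sirt2, a cytoplasmic enzyme, at 0.064. Of the chromatin-bound pair, Sirt6 was at 0.15 and Sirt7, a nucleolar protein, at −0.15 and 0.40 with its 2 probes. Second probes of Sirt4 and Sirt6 were too dim to be detected on both arrays.

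**Figure D2:**
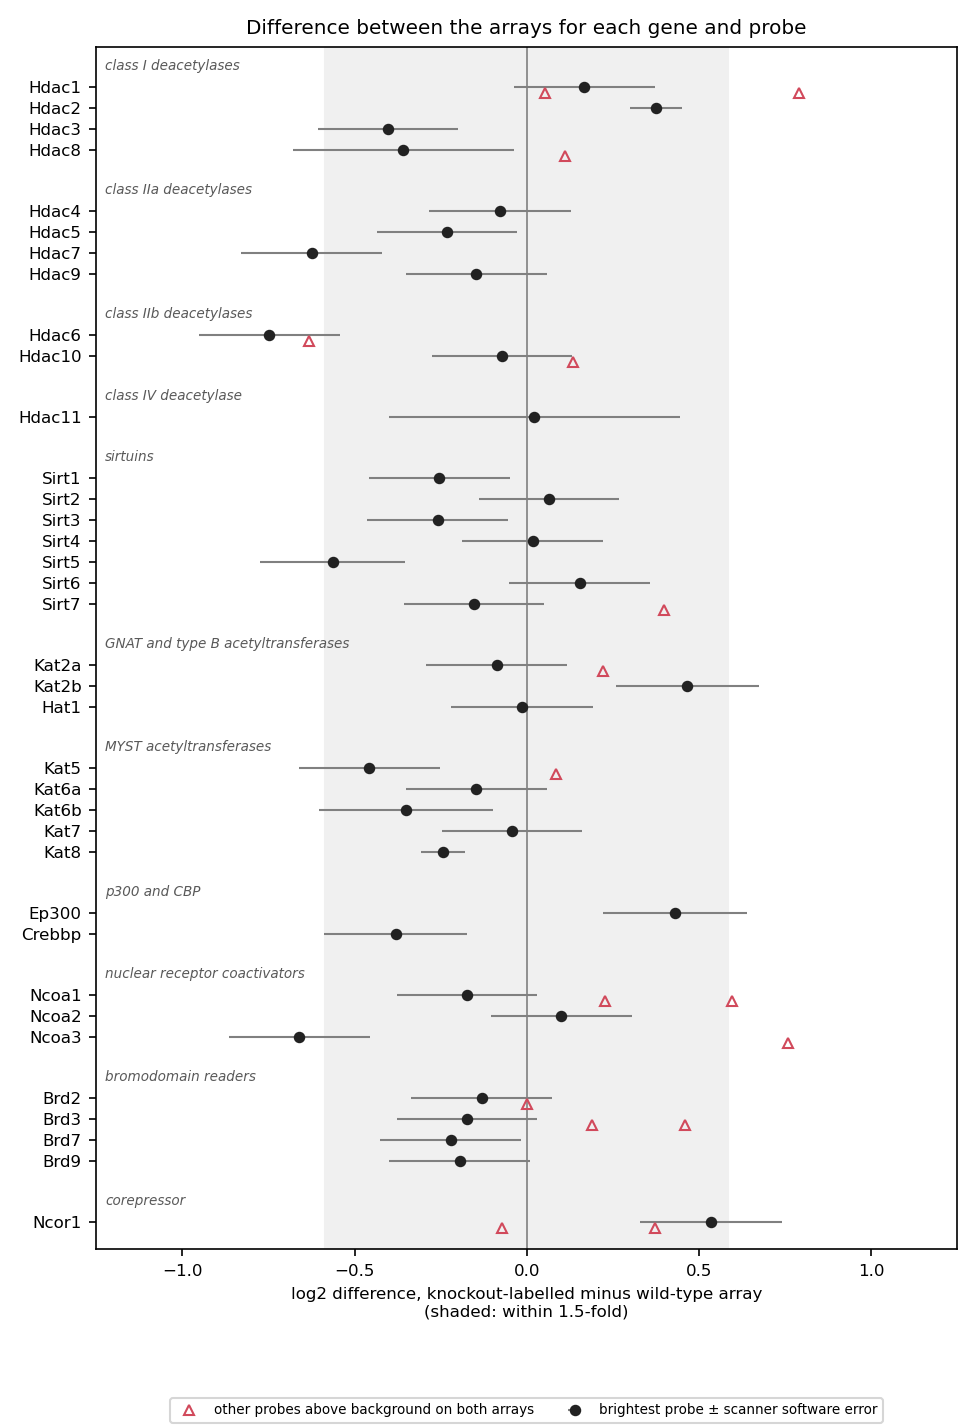
Log2 difference, knockout-labelled minus wild-type array, of each gene's brightest probe (filled circles, with the scanner software's error) and of its other probes detected on both arrays (open triangles), with the range within 1.5-fold shaded. Hdac6, Ncoa3 and Hdac7 lie outside the shading on the low side, and most triangles lie to the right of their circle.

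Acetyltransferases lay on both sides of 0. Ep300 and Crebbp encode p300 and CBP, closely related coactivators that acetylate many of the same proteins, STAT3 among them. Ep300 had signals of 517 and 1001 and a difference of 0.43 ± 0.21, while Crebbp had 826 and 912 and a difference of −0.38 ± 0.21. Across the 12 calculations Ep300 lay between 0.34 and 0.58 and Crebbp between −0.48 and −0.24. Each gene has a single probe here, so calculations that change only the probe rule or the detection filter repeat the main values. Scalings that subtract 1 value per array move both genes alike. Most of the 12 therefore could not bring the pair together, and the difference between the genes was not tested.

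The second pair, Kat2a and Kat2b, encodes GCN5 and PCAF, alternative catalytic subunits of the SAGA and ATAC complexes. Kat2b was at 0.47 ± 0.21 (signals 599 and 1188), the second highest of the 36 genes, and Kat2a was at −0.087 and 0.22 with its 2 probes, with no settled direction (below 0 in 6 of 12 calculations). Kat2b, with 1 probe, ranged from 0.37 to 0.61 across the 12 calculations. Hat1, which acetylates newly made histone H4, was at −0.013.

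The 5 MYST acetyltransferases were all below 0 in the main calculation, with a median of −0.24, and 3 of 5 were below 0 with the signal trend removed. Kat5, the TIP60 enzyme of DNA repair and transcription, was at −0.46 ± 0.20 (signals 5514 and 5772), and its dimmer probe was at 0.084. Kat6b was at −0.35 ± 0.25, its relative Kat6a (MOZ, needed for blood stem cells) at −0.15 and Kat7 (HBO1, of replication origins) at −0.043. Kat8, the histone H4 acetyltransferase MOF, was printed 10 times and gave −0.24 ± 0.17 (SD over 10 spots, technical), below 0 in 9 of 10. Its spots ranged from 2125 to 3065 on the wild-type array and from 2740 to 3489 on the knockout-labelled array before scaling.

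Nuclear receptor coactivators, scaffolds that recruit p300 to hormone receptors, gave the widest disagreement between probes. The bright probe of Ncoa3 was at −0.66 ± 0.20 (signals 9840 and 8945) and its dim probe at 0.76 ± 0.31 (signals 90.6 and 220.1), a gap of 1.42 on the log2 scale. Its place among the 3 genes at 1.5-fold therefore rests on which probe stands for it. Ncoa1 was at −0.17, 0.23 and 0.60 with its 3 probes, in order of falling brightness. Ncoa2, with 1 probe, was at 0.10.

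Readers of acetyl-lysine lay close to 0. Brd2 and Brd3 are BET proteins that carry transcription regulators to acetylated chromatin, and Brd7 and Brd9 are subunits of SWI/SNF remodelling complexes. Their brightest probes lay between −0.22 (Brd7) and −0.13 (Brd2), with Brd9 at −0.19 and Brd3 at −0.17, each about the size of its software error. Other probes of Brd3 were at 0.46 and 0.19, and with the signal trend removed 2 of the 4 readers were above 0. Ncor1 had 3 probes named by different RefSeq transcripts. The brightest was at 0.54 ± 0.21 (signals 834 and 1739), the second at −0.073 (304 and 415) and the third at 0.37 (148 and 276). The values nearest to 1.5-fold were Hdac7 at −0.62 beyond it, and Sirt5 at −0.56 and Ncor1 at 0.54 short of it.

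Difference and signal were related across all genes. With all genes divided by mean signal into 5 groups of equal size, the median difference was 0.079 in the dimmest group, then 0.055, −0.037, −0.17 and, in the brightest, −0.28. The brightest probes of the 36 genes did not show this order: from dimmest to brightest group their medians were −0.35 (3 genes), −0.094 (2 genes), −0.013 (9 genes), −0.19 (7 genes) and −0.15 (15 genes). In the brightest group 13 of the 15 were below 0, as were 83.6% of all genes there, and in the middle group 5 of the 9. At 1.5-fold the share of all genes was 28.7% in the dimmest group and 14.4% in the brightest.

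Within a gene, dim probes tended to give the higher difference. Of the 36 genes 12 had several probes detected on both arrays, and in 11 of the 12 (91.7%) the dimmest probe gave the higher difference, Ncor1 being the exception. Over all 2886 genes with such probes the share was 70.1%. Probes of opposite sign occurred in 10 of the 12 genes (83.3%), against 46.5% of all such genes, and only Hdac1 and Hdac6 had probes of 1 sign. The median gap between dimmest and brightest probe was 0.42 for the 12 and 0.22 for all. With the trend removed by loess, 19 of the 36 genes were below 0 and 17 above, with a median of −0.015, against 50.6% below 0 and a median of −0.0051 for all genes.

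**Figure D3:**
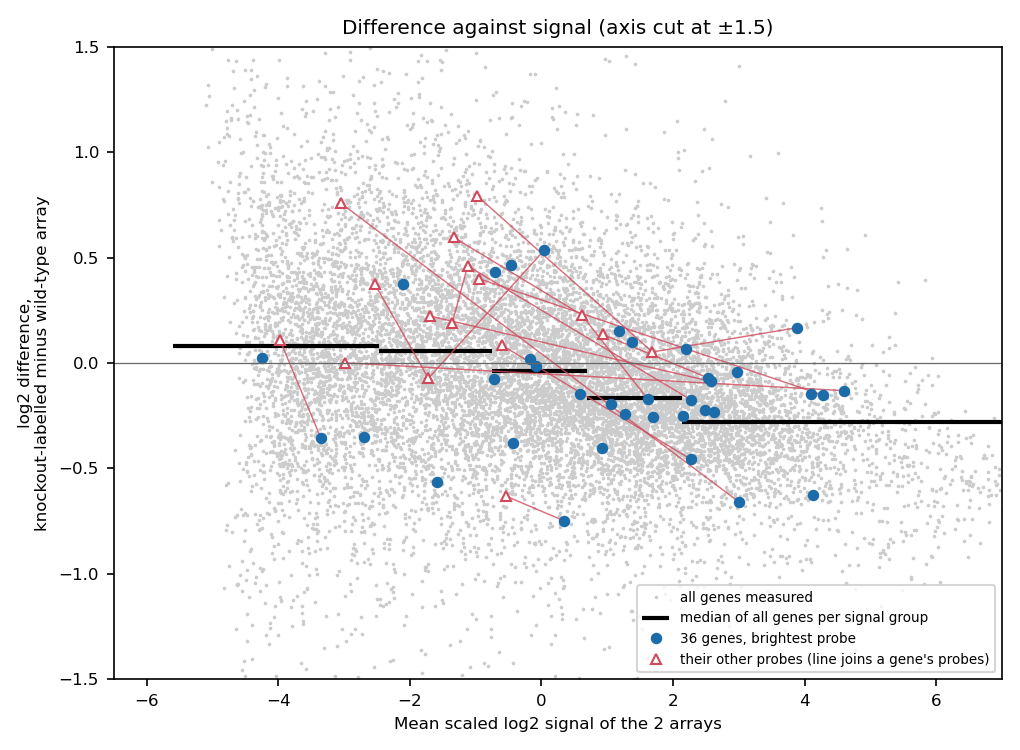
Log2 difference (y axis, knockout-labelled minus wild-type array, values beyond ±1.5 not drawn) against the mean scaled log2 signal of the 2 arrays (x axis) for all genes (grey), the brightest probes of the 36 genes (blue circles) and their other probes (red triangles, joined by gene), with the median of all genes in each of 5 equal groups by signal (black bars). The bars descend from 0.079 to −0.28, and most joining lines slope down to the right.

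Of the 36 genes, 13 were below 0 and 6 above 0 in all 12 calculations, and 17 changed sign in at least 1. The 6 were Hdac2, Sirt6, Kat2b, Ep300, Ncoa2 and Ncor1. The 13 were Hdac3, Hdac5, Hdac6, Hdac7, Hdac9, Sirt1, Sirt3, Sirt5, Kat6b, Kat8, Crebbp, Brd7 and Brd9. Several of these lay close to 0 in some calculations, such as Hdac5 at −0.016 and Hdac9 at −0.00033, and most have a single probe. For a gene with a single detected probe, the alternatives that change the probe rule or the detection filter return the main value and could not differ. The same counts were not made over all genes, so they do not set the 36 apart.

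**Figure D4:**
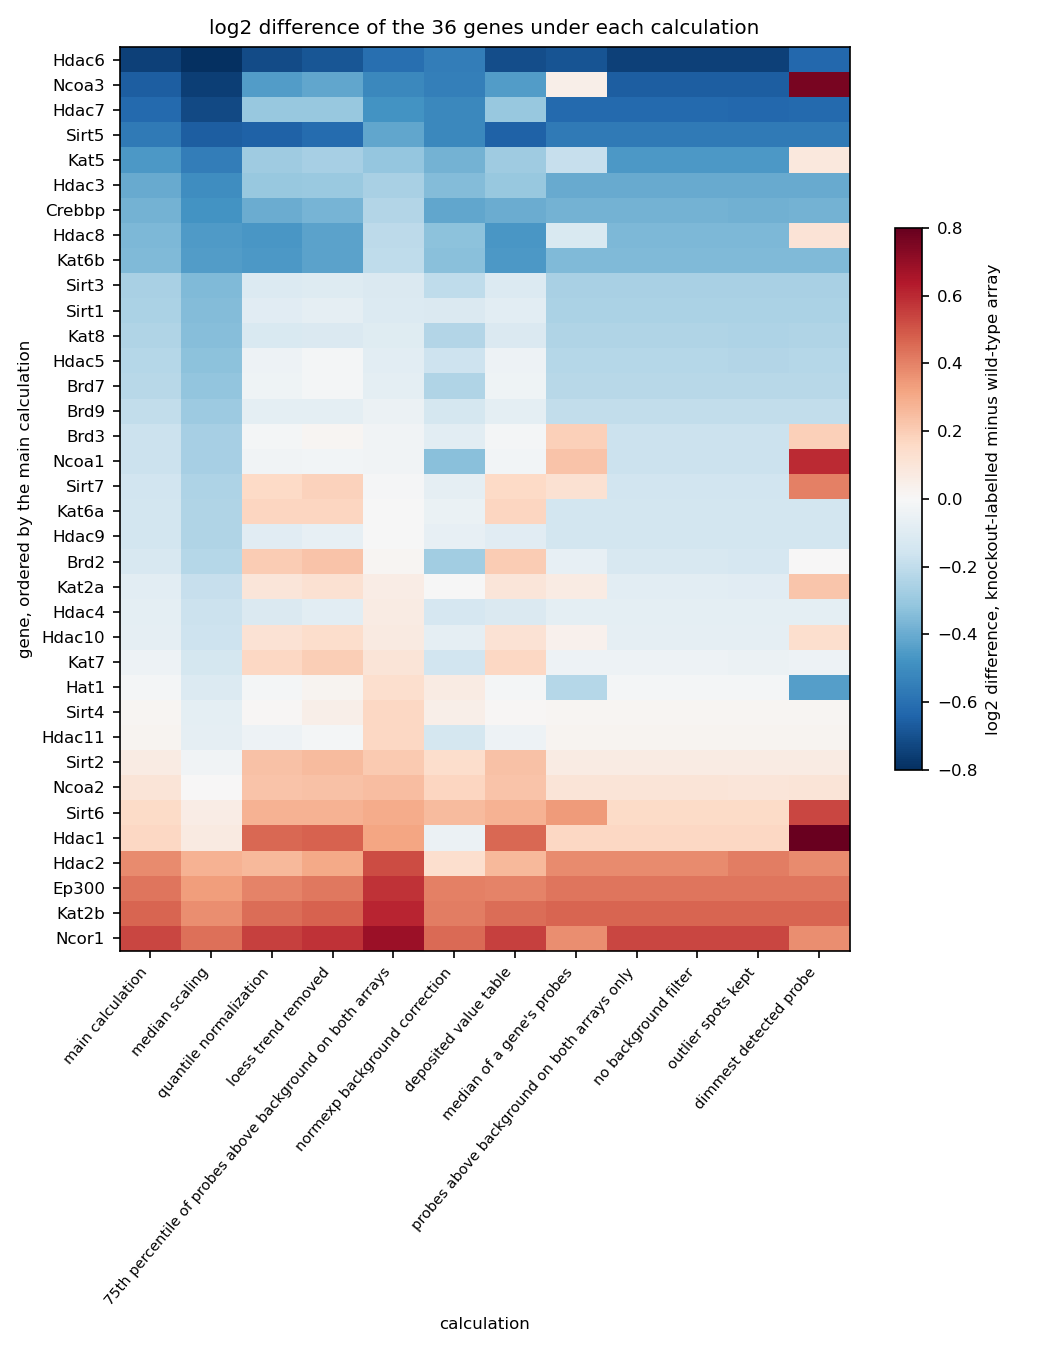
Log2 difference of the 36 genes (rows, ordered by the main calculation) under the main calculation and 11 alternatives (columns), in blue where lower and in red where higher on the knockout-labelled array. Hdac6 and Sirt5 stay blue and Kat2b, Ep300 and Ncor1 stay red throughout, while the middle rows and Ncoa3 change colour.

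Partners of these enzymes were described from 11 lists of complexes and cofactors holding 135 genes, of which 125 were measured. At 2-fold 4 were higher and 1 lower (4%, against 4.83% of all genes), and at 1.5-fold 10 were higher and 9 lower (15.2%, against 17.5%). These counts use measured values, and for 2 of the genes higher at 2-fold, Mta1 and Supt7l, detected on 1 array, the fold itself is only a bound. With normexp background correction, which models the background instead of using the software's subtraction, none of the 4 stayed at 2-fold: Ywhaz was at 0.88, Mef2c at 0.71, Supt7l at 0.40 and Mta1 at 0.17. Their median was −0.068. In the class IIa partner list, which holds MEF2 factors and the Ywha adaptor proteins that keep class IIa enzymes in the cytoplasm, Mef2c was 2.14 times higher (signals 249 and 765) and Mef2a at −0.67 (15176 and 13728). Ywhaz was at 1.13 ± 0.20, with its 3 probes between 0.78 and 1.13, and at 0.91 by their median. The other Ywha genes were at 0.52 (Ywhag), 0.25 (Ywhab), −0.14 (Ywhah and Ywhaq) and −0.21 (Ywhae). The list as a whole had 7 of 12 genes below 0 and a median of −0.13, which turned to 0.22 with the signal trend removed (4 of 12 below 0).

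Subunits of the class I complexes lay on both sides of 0. In the NuRD list Chd4, the remodelling ATPase, was at 0.44, Gatad2b at 0.91 and Gatad2a at −0.91 by its brightest probe, while another Gatad2a probe reached 1.37. Mta1 was detected only on the knockout-labelled array, where it was at least 1.67-fold higher on the software's processed signals. Arid4b of the Sin3 list was at 0.63, Ing1 at −0.60 with its 3 probes between −0.60 and −0.23, and Rcor2 of the CoREST list at −0.77. The NCoR subunits Tbl1x and Tbl1xr1 were at 0.14 and −0.18.

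Among acetyltransferase partners, Supt7l of the SAGA complex was detected only on the knockout-labelled array (at least 2.01-fold higher on the software's processed signals), and Atxn7 of the same complex was at −0.75 and −0.11 with its 2 probes. Actl6a of the TIP60 list was at 0.59, Ruvbl1 at −0.45, Brd1 of the MOZ list at 0.88 and Brpf1 at −0.42. Kansl1 and Mcrs1, of the complex that holds Kat8, were at 0.61 and −0.51. Other bromodomain and YEATS readers had a median of 0.14 over 20 genes, led by Baz1b at 0.67. Atad2 was detected only on the wild-type array, where its measured value was 1.63-fold higher, which is not a lower bound.

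Cofactor supply genes had a median of −0.22, with 11 of 14 below 0, against −0.093 and 59.2% for all genes. The count was 9 of 14 with the signal trend removed (50.6% of all genes) and 8 of 14 with the dimmest probes (52.5% of all genes). With scaling on probes detected on both arrays the list median was −0.070 and that of all genes 0.053. That scaling shifts every gene alike, so it could not change the gap between the list and all genes. Nmnat3, a mitochondrial enzyme of NAD synthesis, was the only partner 2-fold lower, at −1.42 ± 0.21 (signals 870 and 466), or 2.68 times lower, and ranged from −1.52 to −1.20 across the calculations. Nampt, the rate-limiting enzyme of NAD salvage, was at −0.31 and the NAD-consuming surface enzyme gene Cd38 at 0.47. Acly, which makes acetyl-CoA from citrate, had probes at −0.26 and 0.44, and Acss1 at −0.62.

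**Figure D5:**
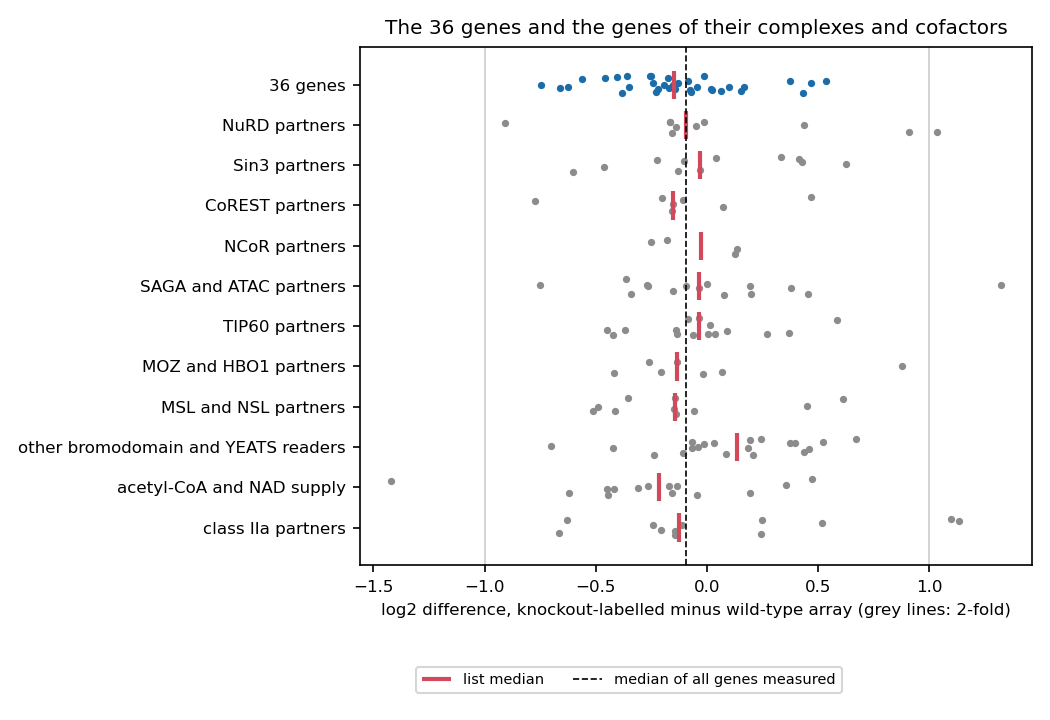
Log2 difference, knockout-labelled minus wild-type array (x axis), of the 36 genes (blue) and of the genes in 11 partner lists (grey), with the list median (red bar), the median of all genes (dashed line) and 2-fold (grey lines). The 36 genes lie within 2-fold, and the points beyond it are Mta1, Supt7l, Mef2c, Ywhaz and Nmnat3.

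The tissue label was checked against marker genes. All 8 B cell, 9 T cell and 7 red pulp macrophage markers were detected on both arrays, with summed scaled signals (in units of each array's 75th percentile) of 166 and 134, 50.5 and 44.3, and 106 and 92.7 on the wild-type and knockout-labelled arrays. Markers of other cells differed more. The 13 exocrine pancreas genes were all past 2-fold and higher with the knockout label, against 2.57% of all genes. Their summed signals were 19.7 and 185. Of neutrophil precursor genes 9 of 10 were at least 2-fold lower (56.9 and 10.9), against 2.26% of all genes. The count was 5 of 6 for megakaryocyte and platelet genes (47.0 and 13.8) and 4 of 10 for erythroid genes (211 and 137). In the erythroid list 3 of 10 genes were above 0, with Klf1 the highest at 0.73. All 10 proliferation genes were below 0, against 59.2% of all genes, and 6 of 7 splenic stroma genes were above it (20.6 and 28.6). The platelet gene Gp1bb was not detected on either array. Their part in the values of the 36 genes was not tested, and in whole tissue fewer cells of a type and less RNA per cell cannot be told apart. The Loxl3 probe itself had signals of 117 and 125, a difference of −0.43 ± 0.29. Where this probe lies relative to the deleted part is unknown here, so it does not check the labels.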

How the data were processed

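Spleen RNA of wild-type and Loxl3 knockout-labelled mice was measured on 2 one-colour arrays, 1 per group, grouped by the genotype in the labels. Per the file headers, the deposited intensity values came from Agilent Feature Extraction 11.0.1.1 (protocol GE1_1100_Jul11, design build mm9), which detrended each spot and subtracted its background. The authors also deposited a table of log2 values. Set against the scanner files it matched quantile-normalized processed signals, with 3 of 39420 probes over 1 away, and its steps are not given in the sources used here.

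Controls and outlier spots (110 and 132) were left out, and no spot was saturated. Log2 processed signals of a probe's spots were averaged and each array's 75th percentile subtracted (signals of 974 and 1400). Probes were named by unversioned RefSeq accession (27226 of 39420, assembly GRCm38.p6, used for names only). Each gene was represented by the brightest of its probes that the software called well above background on 1 array or both. Where only 1 array detected a gene, the fold was set against the dim probe's signal or the lowest detected signal on that array, whichever is higher. It is a lower bound in the latter case. In the former, as for Atad2, it is the measured fold.

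No test was possible with 0 residual degrees of freedom, and the number of arrays limits the precision. The main alternatives were other scalings (limma 3.58.1 for normexp, offset 50, on the median signals, since the files hold no mean signal column), probe rules and filters. The scalings, with the brightest-probe rule, were tested on simulated data with known differences. The simulated arrays differed by a constant shift and held no trend of the difference on signal, so they do not test how such a trend is handled. Normexp, the deposited values, the other probe rules and the filters were not simulated. The members, lists and alternatives were chosen with earlier results of these data known. The text names in full the 6 highest and 6 lowest genes, genes at 1.5-fold, genes with probes of opposite sign over 0.3 apart and Loxl3, and, of the partner lists, genes at 2-fold and the highest and lowest of a list, plus well-known subunits chosen after their values were seen. Some genes of these lists are not reported here.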

Additional observations from a re-analysis of the deposited data

How the results depend on the processing

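No gene of the 36 reached 2-fold in any of the 12 calculations, made up of the main one and 11 alternatives, 1 of which (the dimmest detected probe of a gene) was chosen after the data were seen. At 1.5-fold the count was 3, within 1.5 times of it under 9 alternatives, 0 with normexp background correction and 5 with the dimmest detected probe. The median of the 36, −0.15 in the main calculation, ranged from −0.24 (median scaling) to 0.0093 (dimmest probe) under the alternatives. The median over all genes was −0.19 and −0.030 in these same calculations. All 11 medians of the 36 lay within 1 software error of the main value. That error (median 0.205 over all genes) is for single genes and is larger than the main median, so it is no measure of a stable median. Ncoa3 turned positive when its probes' median was taken (0.049) and with the dimmest probe (0.76). The median over all genes shifted by 0.15 when scaling used only probes detected on both arrays, and by −0.095 with median scaling. The share of 2-fold genes that were higher with the knockout label was 53.2% in the main calculation, 70.9% with the former and 41.3% with the latter. No paired analysis was possible because each group has 1 array. Leaving out an array was not possible either.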
